A study of Mus musculus with 96 samples.

Results

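Iron handling in the liver was followed through 10 genes in 96 mice, 8 in each of 12 groups made of 6 strains on 2 diets. The genes were Hamp, Hamp2, Tfrc, Tfr2, Trf, Slc40a1, Slc11a2, Fth1, Ftl1 and Bmp6, of 18194 gene symbols that the array's annotation names. They were found as every probe set annotated to one of these symbols, which gave 25 probe sets. All mice were male, 22 weeks old at collection, housed singly and fed 84 kcal per week of an AIN93M-based diet during an acclimation that began at 6 weeks of age. From 8 weeks of age the restricted mice received a diet reduced in calories by 25% and the control mice stayed on the control diet, so the comparison covers 14 weeks. The inbred strains were C3H/HeJ, CBA/J, DBA/2J, C57BL6/J and 129S1/SvImJ, and B6C3F1/J is the first-generation cross of a C57BL/6 and a C3H parent. Total liver RNA of one mouse was hybridised to each array, and the signal is given as log2 throughout, where a difference of 1 is a doubling.

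Hepcidin, the product of Hamp, is a peptide hormone made by hepatocytes that binds the iron exporter ferroportin (Slc40a1) and has it degraded, which lowers the entry of iron into plasma. Its transcription is raised when bone morphogenetic proteins such as Bmp6, released by sinusoidal endothelial cells, signal through SMAD proteins, when Tfr2 senses iron-loaded transferrin, and when interleukin-6 signals through STAT3. Mice carry a neighbouring paralog, Hamp2, whose peptide is not known to share hepcidin's action on iron. Transferrin (Trf) carries iron in plasma, the transferrin receptor Tfrc and the divalent metal transporter Slc11a2 bring it into cells, and the ferritin chains Fth1 and Ftl1 store it.

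The proximal promoters of the paralogs are shown because Hamp and Hamp2 lie side by side and the signals of both differed with diet. In RefSeq's GRCm38.p6 annotation, whose reference strain is C57BL/6J, Hamp spans 30942368 to 30944029 and Hamp2 spans 30922372 to 30924181 on chromosome 7, both on the minus strand, with 18186 bases between them. The 250 bases before each annotated start, chr7:30944030-30944279 for Hamp and chr7:30924182-30924431 for Hamp2, read as follows from 5′ to 3′. Capitals mark the SMAD-bound core GGCGCC of the bone morphogenetic protein response element, or the letters aligned with it, and the match to the STAT motif TTCNNNGAA.
Hamp: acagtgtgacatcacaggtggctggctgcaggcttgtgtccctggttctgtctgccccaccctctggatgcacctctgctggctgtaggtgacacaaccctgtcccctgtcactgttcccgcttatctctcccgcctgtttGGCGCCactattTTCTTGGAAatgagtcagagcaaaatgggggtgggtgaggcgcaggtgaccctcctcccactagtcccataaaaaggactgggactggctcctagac
Hamp2: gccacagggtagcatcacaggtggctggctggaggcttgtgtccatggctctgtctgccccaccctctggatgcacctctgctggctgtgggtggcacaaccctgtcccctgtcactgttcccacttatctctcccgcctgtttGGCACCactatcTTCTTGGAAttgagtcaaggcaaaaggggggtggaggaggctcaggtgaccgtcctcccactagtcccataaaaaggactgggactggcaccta

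The windows aligned over 247 positions, of which 227 (91.9%) were identical and 20 were substitutions. GGCGCC stood at position -109 of Hamp, counted back from the annotated start. The aligned letters of Hamp2 were GGCACC, through the single substitution G145A, with positions counted from 1 at the 5′ end of the Hamp window. TTCTTGGAA was identical in both, at -97 in Hamp and -94 in Hamp2. Searched on both strands, GGCGCC occurred in 9.59% and TTCNNNGAA in 7.02% of the 32851 windows of this length in the RefSeq table. The E-box CACGTG occurred in 6.02% of them and the antioxidant response core TGACNNNGC in 10.2%. Of the 10 genes, 7 had a window, 11 windows in all. Beyond the hepcidin pair, the Tfrc window held GGCGCC at -89 and the Bmp6 window held CACGTG at -127 and TGACNNNGC at -108. These matches describe letters and were not tested as binding sites.

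Of the 25 probe sets, 22 could be tested. The other 3 are the manufacturer's Tfrc control probe sets, which were left out of all tests with the rest of the controls. All 22 passed the filter on low values, which kept 32999 probe sets that reached their array's median in at least 8 of 96 arrays. Hamp2 probe set 1456289_at and Tfrc probe set 1422967_a_at reached it in 14 arrays each, so their values are near the low end of the scale. The remaining 2 low probe sets for Slc11a2 and Tfrc, 1441709_at and 1422966_a_at, reached it in 38 and 83 arrays, and the others in 89 or more. The Trf probe set is shared with Srprb, and the 3 Ftl1 probe sets are shared with the pseudogene Ftl1-ps2, one of them also with Mir692 genes. Signals of different probe sets are not compared as levels, since each binds with its own strength.

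Whole arrays also differed. Array medians lay between 6.21 and 7.50 in 94 arrays and above 8 in 2, DBA/2J restricted replicate 6 and B6C3F1/J control replicate 2. In restricted CBA/J livers the array median averaged 7.29, against 6.52 in control CBA/J livers, with no overlap (exact permutation test over 12870 splits, two-sided p = 0.000155, adjusted p = 0.00373 over 48 comparisons). The mean of 8 hepatocyte transcripts, Alb, Ttr and Apoa1 among them, was 17.2 in restricted and 15.7 in control CBA/J livers (same exact permutation p). All 8 rose there at an adjusted p under 0.05 by limma's test. In that strain 35.6% of all 32999 probe sets were called in either direction. The mean of 4 measured exocrine pancreas transcripts was 8.78 in restricted and 7.63 in control CBA/J livers (exact permutation adjusted p = 0.0448). Of these, Prss2, Cela2a and Cel differed by 1.96, 1.82 and 0.93 in CBA/J. Their means over the control livers of all strains were low, at 7.21, 5.51 and 6.68, against a mean array median of 6.71. Cela1, the brightest with a control mean of 11.94, differed by -0.12 in CBA/J. Averaged over strains, the hepatocyte mean was 0.38 higher and the sinusoidal endothelial mean 0.18 higher in restricted livers (permutation adjusted p = 0.00016 for both), while the array median differed by 0.12 (permutation adjusted p = 0.12). By strain the hepatocyte mean differed by 1.55 in CBA/J. In the other strains it differed by between -0.14 and 0.35, none past the exact permutation test after adjustment. Members of both lists differed in size and direction. Averaged over strains, hepatocyte transcripts ran from 0.11 (F2) to 1.01 (Tat), and endothelial ones from -0.14 (Lyve1) to 0.63 (Kdr). In 129S1/SvImJ and C57BL6/J only Cps1 and Tat of the hepatocyte list were positive, and Alb gave -0.44 and -0.37. Hepatocyte markers were high on all arrays, at a mean of 14.98 or more, as the label of liver requires. In whole liver, fewer cells of a type and less RNA per cell cannot be told apart.

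Averaged over the 6 strains, signals of both hepcidin genes were higher and that of the exporter was lower in restricted livers. Of the 22 probe sets, 3 rose (both of Hamp, 1 of Hamp2) and 2 fell (both of Slc40a1) in the diet effect averaged over strains at an adjusted p under 0.05, against 11% of all 32999 probe sets that rose and 11.7% that fell. The median difference was 0.09 for the 22 probe sets and 0.05 for all. Both shares lie near the background, so it is the sizes in single genes that carry the description. With CBA/J left out, 1 probe set rose and none of the 22 fell by limma's moderated test, with 4 higher and 3 lower at an unadjusted p under 0.05. In that fit 6.63% of all probe sets rose and 7.01% fell.

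**Figure D1:**
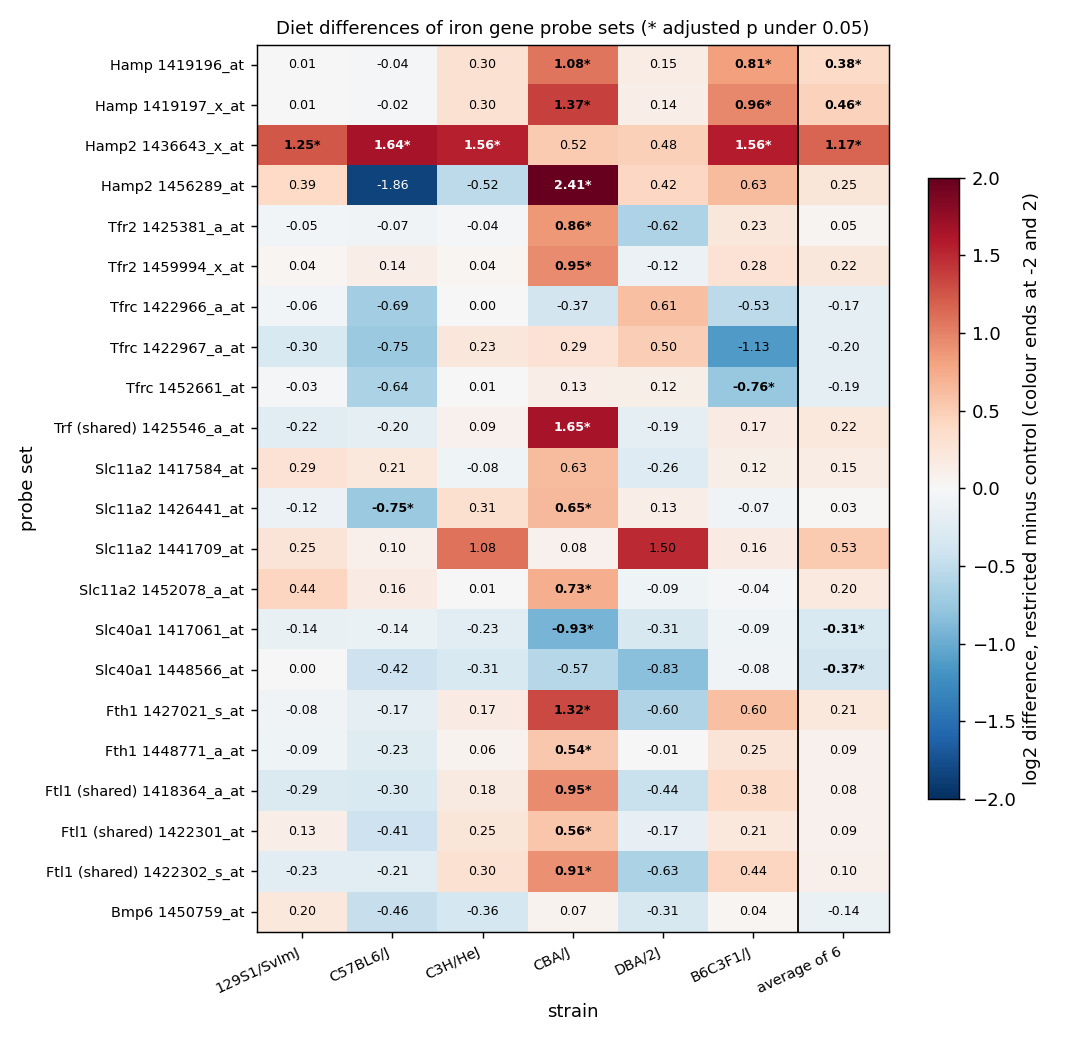
Log2 difference, restricted minus control, of each of the 22 tested probe sets (down) in each strain and averaged over the 6 strains (across), with an asterisk where the adjusted p is under 0.05. Hamp2 probe set 1436643_x_at is positive in every strain, between 0.48 and 1.64, and CBA/J is the column with the most asterisks, 14.

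Hamp2 gave the largest averaged difference among the 22 that passed the test. Its probe set 1436643_x_at was 1.17 ± 0.10 higher in restricted than in control livers (SE, 48 mice on each diet), 2.25-fold, with an adjusted p of 1.25e-18. The lowest, median and highest values were 13.35, 13.86 and 14.64 in restricted and 12.10, 12.66 and 13.19 in control 129S1/SvImJ livers. In C57BL6/J they were 13.14, 13.95 and 14.23 in restricted livers and 11.62, 12.06 and 12.69 in control livers. In these strains every restricted mouse lay above every control mouse.

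In C3H/HeJ the lowest, median and highest Hamp2 signals were 15.13, 16.00 and 16.45 in restricted livers and 13.50, 14.48 and 15.38 in control livers. B6C3F1/J had 15.35, 15.97 and 16.65 in restricted livers and 12.42, 14.66 and 15.38 in control livers. The ranges met only at their edges, and the low end of the B6C3F1/J controls was the array that stands apart. CBA/J had 13.86, 14.95 and 15.73 in restricted livers and 13.81, 14.51 and 14.87 in control livers. DBA/2J, the strain with the highest signal, had 16.55, 16.92 and 17.38 in restricted livers and 16.00, 16.43 and 16.67 in control livers. In both strains the diets overlapped, by little in DBA/2J.

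The Hamp2 difference passed the test in 4 strains, at 1.25 in 129S1/SvImJ (adjusted p = 0.00012), 1.64 in C57BL6/J (2.22e-07), 1.56 in C3H/HeJ (1.95e-06) and 1.56 in B6C3F1/J (1.48e-06). It was 0.52 in CBA/J (adjusted p = 0.071) and 0.48 in DBA/2J (0.242). The diet effect on Hamp2 differed between strains in the interaction test (adjusted p = 0.00375). That call was lost without CBA/J (0.14), and likewise when the array median entered the model (0.141), where the CBA/J difference was 0.98 (adjusted p = 0.00147). The averaged difference passed under all 12 alternatives, between 1.04 and 1.30. The dim Hamp2 probe set 1456289_at differed by 0.25 on average (adjusted p = 0.54), by -1.86 in C57BL6/J, where it did not pass, and by 2.41 in CBA/J, where it did (adjusted p = 0.00139), so the 2 probe sets of the gene did not move alike.

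**Figure D2:**
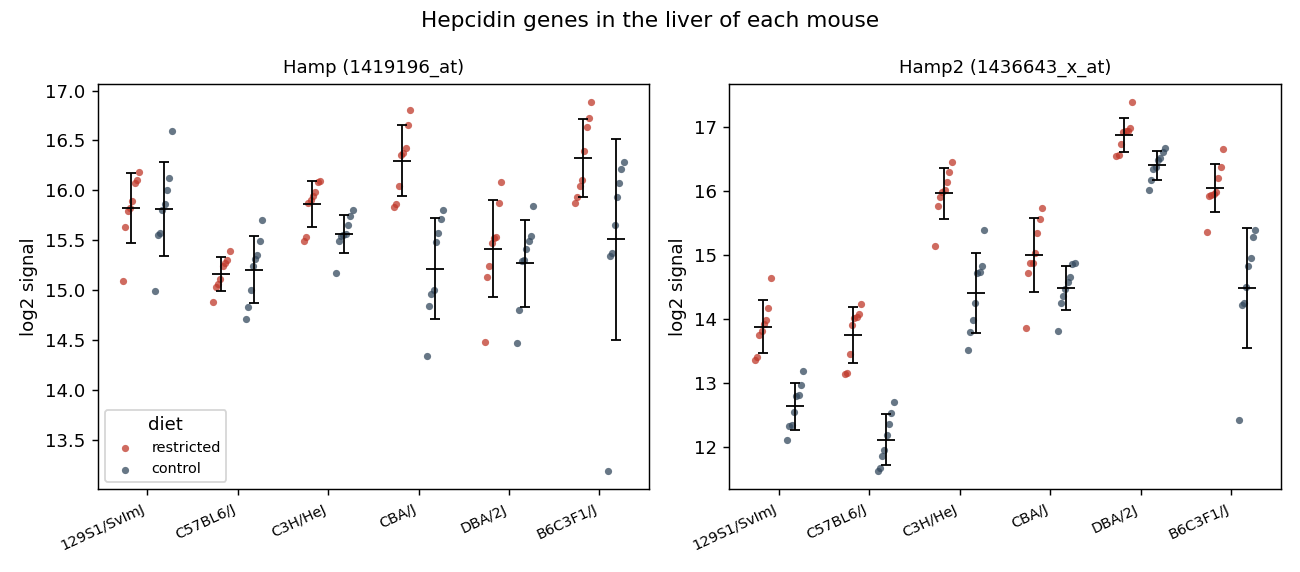
Log2 signal of Hamp (left) and Hamp2 (right) in every mouse, by strain, with restricted mice left of control mice; points are mice and bars are the mean and SD of 8. Hamp2 separates the diets in 129S1/SvImJ and C57BL6/J, where Hamp does not, and Hamp separates them in CBA/J.

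Hamp passed the test in CBA/J and B6C3F1/J. Averaged over strains, 1419196_at was 0.38 ± 0.09 higher in restricted livers (SE, adjusted p = 0.000667) and 1419197_x_at 0.46 ± 0.10 higher (7.5e-05). In CBA/J the lowest, median and highest signals of 1419196_at were 15.84, 16.36 and 16.81 in restricted livers and 14.35, 15.25 and 15.80 in control livers, without overlap. In B6C3F1/J they were 15.88, 16.25 and 16.88 in restricted livers and 13.19, 15.79 and 16.29 in control livers, with overlap. The differences were 1.08 in CBA/J (adjusted p = 6.7e-05) and 0.81 in B6C3F1/J (0.0229), and 1.37 and 0.96 by the other Hamp probe set. In the same CBA/J livers the median of all probe sets was 0.30 higher and the hepatocyte mean 1.55 higher in restricted mice.

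The other strains showed little. The Hamp difference was 0.01 in 129S1/SvImJ, -0.04 in C57BL6/J, 0.30 in C3H/HeJ and 0.15 in DBA/2J, none past the test. Control medians there were 15.84 in 129S1/SvImJ and 15.28 in C57BL6/J, and restricted medians were 15.86 and 15.18 in those strains. The suffix _x_at of the Hamp2 probe set marks probes that can also match other transcripts, and binding of Hamp RNA to it was not tested. Hamp's interaction test passed (adjusted p = 0.0145 and 0.00124 for the 2 probe sets). Without CBA/J the averaged Hamp differences were 0.25 (adjusted p = 0.101) and 0.28 (0.0683). Quantile normalisation put the CBA/J difference of 1419196_at at 0.15 (adjusted p = 0.61), and without the 2 arrays above 8 the B6C3F1/J difference was 0.48 (0.142).

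Ferroportin, the exporter that hepcidin removes, went the other way at the RNA level. Slc40a1 probe set 1417061_at was 0.31 ± 0.07 lower in restricted livers averaged over strains (log2 difference -0.31, SE, adjusted p = 0.00017), with a negative difference in 6 of 6 strains. Probe set 1448566_at gave -0.37 ± 0.11 (adjusted p = 0.0103). Its call was lost under quantile normalisation (-0.33, adjusted p = 0.131) and with the array median in the model (-0.21, 0.0675), as well as without CBA/J. In CBA/J the lowest, median and highest signals of 1417061_at were 11.76, 12.16 and 12.61 in restricted livers and 12.92, 13.06 and 13.33 in control livers. Every restricted CBA/J mouse lay below every control mouse, a difference of -0.93 ± 0.16 (SE, adjusted p = 2.77e-06). The median signal of these restricted CBA/J arrays was higher. A high array median went with a low Slc40a1 signal elsewhere too. B6C3F1/J control replicate 2, with an array median of 8.66, read 10.72, against 12.68 to 13.21 in the rest of its group. In the other 5 strains 1417061_at differed by -0.31 in DBA/2J, -0.23 in C3H/HeJ, -0.14 in 129S1/SvImJ, -0.14 in C57BL6/J and -0.09 in B6C3F1/J, and none passed. Without the 2 arrays above 8, the B6C3F1/J difference was -0.37 and passed (adjusted p = 0.0441). Without CBA/J the averaged differences were -0.18 (adjusted p = 0.107) and -0.33 (0.0942). Its interaction call (adjusted p = 0.0267) was lost when the array median entered the model (0.802). Kupffer cells are a major site of ferroportin, and the mean of 10 Kupffer transcripts averaged 9.99 in restricted and 9.85 in control livers (permutation p = 0.144). In CBA/J that mean was 9.78 in restricted and 9.31 in control livers (exact permutation adjusted p = 0.107 over 48 comparisons). There 3 of the 10 rose by limma's test, Adgre1 by 1.04, C1qb by 0.82 and Clec4f by 0.75. The background in CBA/J was 35.6% of all probe sets called in either direction. Timd4 and Cd5l gave -0.81 and -0.22 in CBA/J and did not pass. The median difference of the 10 was 0.48, against 0.30 for all probe sets. The part of Kupffer cells in the Slc40a1 result was not tested.

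CBA/J was the strain in which most of the 22 probe sets were called. There 13 rose and 1 fell, from 8 of the 10 genes, against 35.6% of all probe sets called in either direction. The median difference of the 22 was 0.64, against 0.30 for all probe sets. The other strains had 1 called in 129S1/SvImJ (background 3.32%), 2 in C57BL6/J (2.51%), 1 in C3H/HeJ (1.16%), none in DBA/2J (5.38%) and 4 in B6C3F1/J (3.29%). In DBA/2J, 4 of the 22 had an unadjusted limma p under 0.05. The interaction test passed for 10 of the 22 (background 18.7%), and for none of the 22 without CBA/J by limma's moderated F test, with 7 at an unadjusted p under 0.05. For the interaction without CBA/J no share of all probe sets is given, so that loss cannot be set against a background.

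Transferrin, the plasma carrier, had the largest CBA/J difference among the probe sets that reached the array median on every array. The probe set shared by Trf and Srprb had lowest, median and highest signals of 17.17, 17.90 and 18.01 in restricted CBA/J livers and 15.92, 16.12 and 16.24 in control CBA/J livers. The groups did not overlap, and the difference was 1.65 ± 0.24 (SE, adjusted p = 3.95e-08). Its differences in the other 5 strains lay between -0.22 and 0.17, and the averaged difference was 0.22 (adjusted p = 0.11). Albumin, another secreted hepatocyte product, differed by 1.95 in the same livers.

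The ferritin chains showed the same strain. Fth1, the heavy chain with ferroxidase activity, had lowest, median and highest signals of 16.27, 17.01 and 17.37 in restricted CBA/J livers and 15.26, 15.57 and 15.77 in control CBA/J livers by 1427021_s_at. That is a difference of 1.32 (adjusted p = 0.000737), and its second probe set gave 0.54 (0.00398). The second value turned to -0.32 (adjusted p = 0.00627) under quantile normalisation, so its direction depends on the scaling. The 3 shared Ftl1 probe sets, for the light chain, rose by 0.95, 0.56 and 0.91 in CBA/J. No ferritin probe set passed in another strain, and their averaged differences lay between 0.08 and 0.21. Ferritin production is controlled largely at translation by iron regulatory proteins, which an RNA signal does not show.

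Of the proteins that take in or sense transferrin iron, Tfr2, the hepatocyte sensor, rose in CBA/J by 0.86 and 0.95 in its 2 probe sets. The interaction test did not pass for either (adjusted p = 0.129 and 0.346). Its averaged differences were 0.05 and 0.22, neither past the test. Tfrc, the uptake receptor whose RNA is stabilised when cells lack iron, differed by -0.19 on average (1452661_at, adjusted p = 0.118). In B6C3F1/J its lowest, median and highest signals were 8.91, 9.43 and 10.09 in restricted livers and 9.22, 10.28 and 11.12 in control livers. That difference passed at -0.76 (adjusted p = 0.0369), though the groups overlapped and the call was lost under quantile normalisation (0.22). C57BL6/J, a parent strain of the cross, gave -0.64 (adjusted p = 0.135), with 8.85, 9.76 and 10.43 in restricted and 10.02, 10.32 and 10.71 in control livers. In the remaining 4 strains 1452661_at differed by between -0.03 and 0.13. There the Tfrc probe set 1422966_a_at gave between -0.37 and 0.61, and neither it nor 1422967_a_at passed in any of the 6 strains.

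Slc11a2, which carries ferrous iron across membranes, fell in C57BL6/J and rose in CBA/J by 1 of its 4 probe sets, 1426441_at. By that probe set the lowest, median and highest signals were 7.60, 8.09 and 8.48 in restricted and 8.47, 8.81 and 9.07 in control C57BL6/J livers, a difference of -0.75 (adjusted p = 0.0284). They were 7.80, 8.02 and 8.80 in restricted and 6.94, 7.60 and 8.03 in control CBA/J livers, a difference of 0.65 (0.01). The strains differed in the interaction test (adjusted p = 0.00438). Both strain calls were lost with each array centred on its 75th percentile (0.0658 and 0.0617), with differences of -0.73 and 0.51. Of the other 3 Slc11a2 probe sets, only 1452078_a_at passed in any strain, at 0.73 in CBA/J. In C57BL6/J 1417584_at, 1441709_at and 1452078_a_at gave 0.21, 0.10 and 0.16, none past the test. Bmp6, the endothelial ligand that raises hepcidin transcription, passed in no strain: it differed by -0.14 on average (95% interval -0.34 to 0.06, adjusted p = 0.36) and by between -0.46 and 0.20 within strains.

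**Figure D3:**
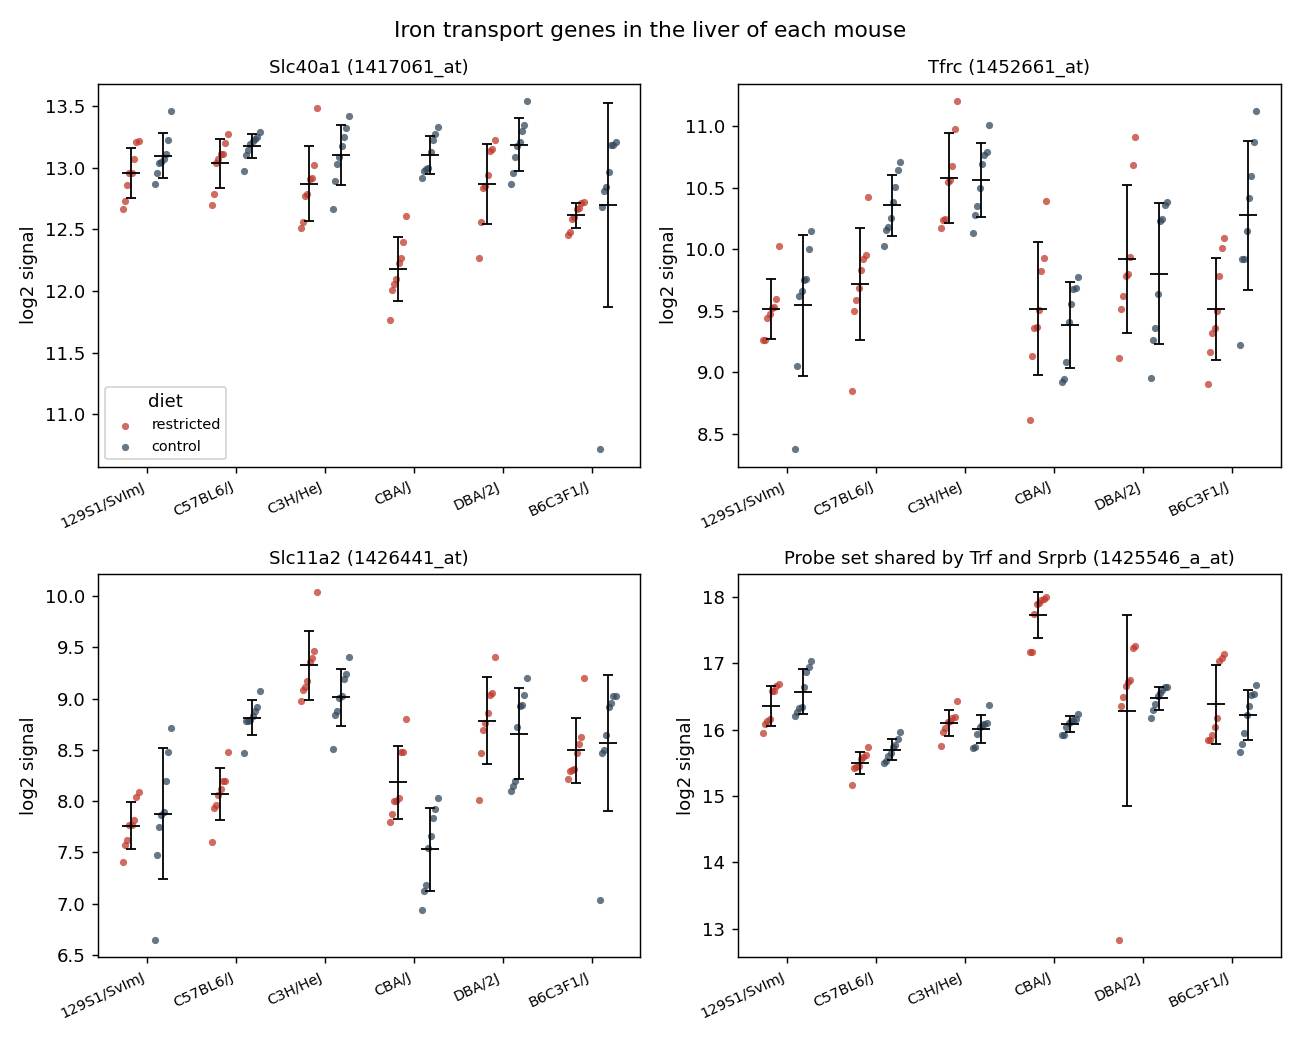
Log2 signal of Slc40a1, Tfrc, Slc11a2 and the Trf probe set shared with Srprb in every mouse, by strain, with restricted mice left of control mice; points are mice and bars the mean and SD of 8. Restricted CBA/J mice lie below their controls for Slc40a1 and above them for Trf, and the lowest point of each of these panels is an array with a median above 8.

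The strains differed on the control diet too, and for Hamp2 by more than the diet did. Of the 22 probe sets, 7 passed the test over the 6 control groups, against 35.8% of all probe sets. Over all 15 pairs of control groups, 49 of 330 member comparisons passed, against 10% of all. DBA/2J controls had a mean Hamp2 signal of 16.39 ± 0.22 (SD, n = 8). B6C3F1/J, CBA/J and C3H/HeJ followed at 14.48 ± 0.94, 14.48 ± 0.35 and 14.40 ± 0.62, and 129S1/SvImJ and C57BL6/J were lowest at 12.63 ± 0.37 and 12.11 ± 0.40. The steps from DBA/2J to B6C3F1/J (1.91, adjusted p = 4.21e-10) and from C3H/HeJ to 129S1/SvImJ (1.77, 3.58e-09) passed. The neighbours within the middle group did not differ past the test, nor did 129S1/SvImJ and C57BL6/J (0.52, adjusted p = 0.141). DBA/2J and C57BL6/J, the ends of the order, were 4.29 apart. In restricted livers the means were 16.87 in DBA/2J, 16.04 in B6C3F1/J, 15.96 in C3H/HeJ, 14.997 in CBA/J, 13.88 in 129S1/SvImJ and 13.75 in C57BL6/J. Sequence differences between strains under the probes were not tested.

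B6C3F1/J had a control Hamp2 signal 1.23 ± 0.20 above the mean of its parent strains (SE, adjusted p = 2.51e-05), near the C3H/HeJ parent at 14.40 and far from the C57BL6/J parent at 12.11. On the restricted diet it stood at 16.04, with 15.96 in C3H/HeJ and 13.75 in C57BL6/J. Slc40a1 was the other of 2 probe sets that differed from the parents' mean on the control diet, at -0.44 (adjusted p = 0.0383), against 7.29% of all probe sets. That call was lost without the 2 arrays above 8, at -0.16 (0.391).

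The Tfrc probe set 1452661_at and the Slc11a2 probe set 1426441_at also differed between control groups, with C3H/HeJ highest and CBA/J lowest in both. By 1452661_at, Tfrc controls averaged 10.56 in C3H/HeJ, 10.36 in C57BL6/J, 10.28 in B6C3F1/J, 9.80 in DBA/2J, 9.55 in 129S1/SvImJ and 9.38 in CBA/J (adjusted p = 5.84e-06 over the groups), with no neighbouring pair past the test. The Tfrc probe sets 1422966_a_at and 1422967_a_at were highest in C57BL6/J, at 8.19 and 6.68, and did not pass over the groups (adjusted p = 0.0604 and 0.113). By 1426441_at, Slc11a2 controls averaged 9.01 in C3H/HeJ, 8.81 in C57BL6/J, 8.66 in DBA/2J, 8.57 in B6C3F1/J, 7.88 in 129S1/SvImJ and 7.53 in CBA/J (adjusted p = 1.72e-09). There the step from B6C3F1/J to 129S1/SvImJ, 0.69, was the one between neighbours that passed (adjusted p = 0.0196). The other calls were Tfr2 1459994_x_at, Trf, Slc11a2 1441709_at and Ftl1 1422301_at. Neither Hamp probe set passed (adjusted p = 0.105 and 0.152), and control Hamp means of 1419196_at lay between 15.21 and 15.81. Without the 2 arrays above 8, that Hamp probe set passed (adjusted p = 0.000825).

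Hamp's variation among mice of the same group was set against 15 other genes, after removing each group's mean, in 96 mice. How this r is distributed over all genes was not computed, so the values below have no background. Genes outside the 15, picked for group means like those of Hamp, reached similar r within groups. They were Pld3 (0.63), Slc22a18 (0.60), Prkcsh (0.58), Hdac10 (0.56) and Vps53 (0.33). Atoh8, a transcription factor known to activate hepcidin transcription, had a Pearson r of 0.45 and a Spearman rho of 0.46 (permutation within groups, p = 2e-05 and 3e-05, adjusted p = 1e-04 and 0.0003 over the 15). The Atoh8 signal was low, at a mean of 6.78 in restricted and 6.88 in control livers, against a mean array median of 6.71. Without the 2 mice farthest from the median of Atoh8 r was 0.47, and it was 0.46 within restricted and 0.48 within control mice. Under the 4 alternatives r lay between 0.32 and 0.50 and passed in each. Hamp2 had r = 0.56 and rho = 0.46 (permutation adjusted p = 1e-04 and 0.0003), with r = 0.39 without 2 mice. Id1, a direct target of bone morphogenetic protein signalling, had r = 0.49 and rho = 0.32 (permutation adjusted p = 0.0015 and 0.0108). Id1's r was 0.26 without 2 mice and 0.21 (adjusted p = 0.101) without the 2 arrays above 8, so that relation rests in part on these mice.

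Among the iron genes, r with Hamp was 0.60 for Fth1 (rho 0.44), 0.50 for Ftl1 (rho 0.40), 0.47 for Tfr2 (rho 0.31) and 0.40 for Trf (rho 0.40), each past the permutation test, with adjusted p between 1e-04 and 0.0113 over both measures. Without 2 mice they were 0.45, 0.34, 0.31 and 0.37. Within restricted mice r was 0.61 for Fth1, 0.56 for Ftl1, 0.14 for Tfr2 and 0.57 for Trf. Within control mice it was 0.72, 0.67, 0.60 and 0.38 in that order. With the array median regressed out, r was 0.48 for Fth1, 0.36 for Ftl1, 0.39 for Tfr2 and 0.34 for Trf, each past the permutation test (adjusted p between 7.5e-05 and 0.00102). After quantile normalisation Fth1 (r = 0.28, adjusted p = 0.0109) and Tfr2 (0.46, 0.00105) passed, and Trf (0.14, 0.236) and Ftl1 (0.18, 0.106) did not. For Slc40a1 r was 0.36 and rho -0.10 (permutation adjusted p = 0.182 and 0.479), and r was -0.12 without 2 mice, so its sign rested on them. Bmp6 (r = -0.04), Tfrc (0.05), Smad6 (0.05), Smad7 (0.03), Saa1 (-0.04), Socs3 (0.19) and Slc11a2 (0.31) did not pass. Within restricted and control mice r was 0.33 and -0.41 for Bmp6 and -0.29 and 0.21 for Saa1. It was -0.21 and 0.42 for Socs3 and -0.02 and 0.45 for Slc11a2. The values by diet were not tested.

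**Figure D4:**
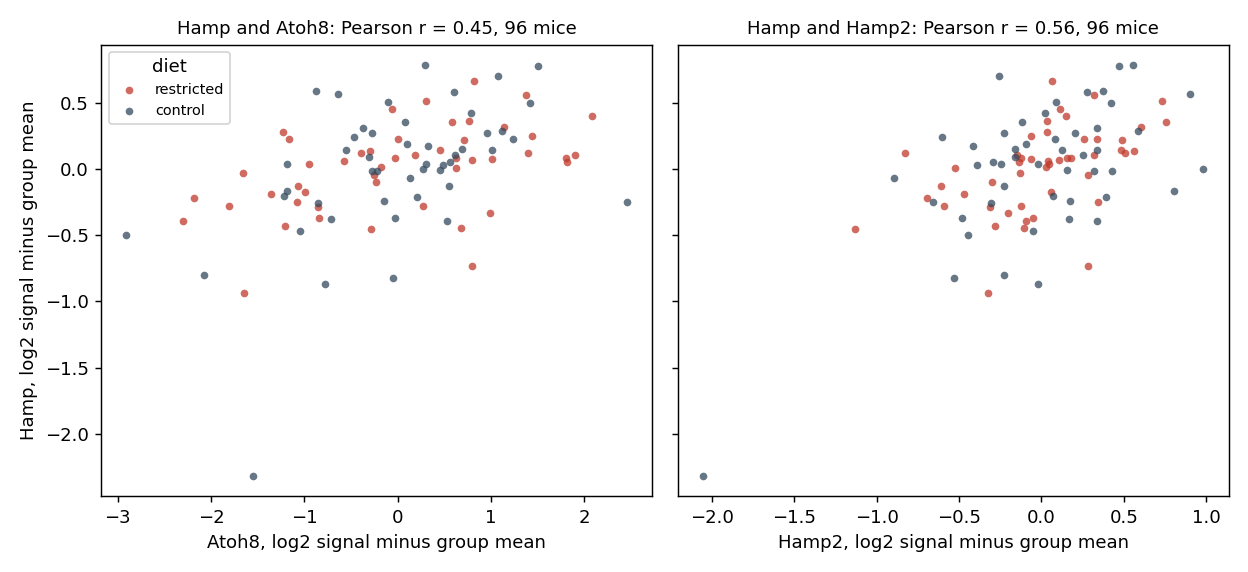
Hamp log2 signal minus the group mean (vertical) against the same for Atoh8 (left, r = 0.45) and Hamp2 (right, r = 0.56); each point is 1 of 96 mice, coloured by diet. Both clouds tilt upward, and the lowest Hamp point is B6C3F1/J control replicate 2.

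Genes of the pathways around hepcidin moved in mixed directions, with 1 probe set taken per gene. For these lists the background was 11% of all probe sets that rose and 11.7% that fell in the averaged effect, and 6.63% and 7.01% without CBA/J. Of 17 measured genes of the signalling chain upstream of Hamp, 3 rose and 6 fell in the averaged diet effect, and 1 rose and 1 fell without CBA/J. The median difference was -0.03, against 0.05 for all probe sets. Bmper, a secreted binder of bone morphogenetic proteins, rose by 1.11 (adjusted p = 9.39e-07) and by 0.96 without CBA/J (0.00026), from -0.02 in 129S1/SvImJ to 2.13 in DBA/2J. The Bmper signal was near the low end of the scale, at a mean of 6.82 in restricted and 5.72 in control livers. The mean array median was 6.71. Neo1, the receptor neogenin that binds hemojuvelin, fell by 0.66, and by 0.35 without CBA/J (adjusted p = 0.034). The type II receptors Bmpr2 and Acvr2a gave -0.39 and -0.24, and -0.20 and -0.13 without CBA/J, where neither passed. Their diet effects differed between strains (interaction adjusted p = 4.78e-05 and 0.000256), with -1.36 and -0.78 in CBA/J and 0.12 and 0.22 in C57BL6/J.

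Among 8 targets of this signalling 1 fell and none rose by limma's test, against a background of 11.7% and 11%, with Id2 at -0.59 (adjusted p = 0.00215) and -0.62 without CBA/J (0.00818). Smad9, Smad7 and Id1 gave 0.51, -0.28 and 0.23 and did not pass, Smad9 with an unadjusted p of 0.0155. Id1 differed between strains (interaction adjusted p = 2.03e-05), from -0.52 in 129S1/SvImJ to 1.38 in B6C3F1/J, as did Id2, from -1.71 in DBA/2J to 0.73 in B6C3F1/J (0.00309). Atoh8, named above for its relation to Hamp, gave -0.11 on average and also differed between strains (interaction adjusted p = 0.0057). It ran from -1.48 in C3H/HeJ to 1.77 in CBA/J. In CBA/J 3 of the 8 targets rose by limma's test, against 35.6% of all probe sets called in either direction. Of 14 genes of the inflammatory arm 1 rose, against a background of 11%: Lcn2, which encodes the siderophore-binding lipocalin, by 0.80 (adjusted p = 0.0133), with 0.66 without CBA/J (0.125). Saa1, Il6st and Il6ra, an acute-phase protein and the receptor chains for interleukin-6, gave -0.49, -0.13 and 0.16 and did not pass. Creb3l3, a hepatocyte stress factor that can activate Hamp, differed between strains (interaction adjusted p = 1.37e-06), from -0.36 in C57BL6/J to 0.98 in CBA/J, and fell by 0.21 without CBA/J (0.0283). Il6ra also differed, from -0.91 in B6C3F1/J to 0.76 in CBA/J (0.00418).

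Of 15 genes of iron and haem uptake, 5 rose and 1 fell (background 11% and 11.7%), and 4 rose and 1 fell without CBA/J (background 6.63% and 7.01%). The median difference was 0.19. Hmox1, which opens the haem ring and frees its iron, rose by 0.53 (adjusted p = 0.000995) and by 0.48 without CBA/J (0.0144). Steap4, a metalloreductase, rose by 0.26 and by 0.32 without CBA/J (adjusted p = 0.00839). Slc46a1, a folate and haem carrier, rose by 0.28, and gave 0.29 without CBA/J (0.0785). Hpx, the plasma haem binder, rose by 0.35, but gave 0.08 without CBA/J (adjusted p = 0.545). Hpx differed by 1.68 and Hp, the haemoglobin binder, by 1.40 in CBA/J, where the hepatocyte mean was also higher.

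Of 10 measured genes of storage and trafficking, 2 rose and 2 fell (background 11% and 11.7%), and 2 rose and 1 fell without CBA/J (6.63% and 7.01%). The median difference was 0.13. Pcbp1, the chaperone that delivers iron to ferritin, fell by 0.40 (adjusted p = 1e-07), by 0.33 without CBA/J (0.000234), with a negative difference in every strain between -0.78 and -0.08. Slc25a28, a mitochondrial iron importer, rose by 0.22 and Epas1, a hypoxia-inducible factor, by 0.31, and both passed without CBA/J (adjusted p = 0.0363 and 0.0395). Hif1a gave -0.30, and -0.03 without CBA/J (0.925). Hif1a and Cp, the plasma ferroxidase, differed between strains (interaction adjusted p = 0.000104 and 0.00325), with -1.64 and 0.81 in CBA/J. The 3 genes of the iron regulatory protein system, Aco1, Ireb2 and their regulator Fbxl5, gave -0.17, 0.06 and 0.02 on average. None of the 3 passed by limma, with unadjusted p-values of 0.205, 0.406 and 0.809. All 3 fell in CBA/J, by 1.72, 0.70 and 0.79, where 35.6% of all probe sets were called in either direction.

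Of 12 measured genes of iron-sulfur cluster assembly, 4 rose and 1 fell (background 11% and 11.7%), and 1 rose and 1 fell without CBA/J (6.63% and 7.01%). The median difference was 0.06. The mitochondrial chaperone Hspa9 rose by 0.20 and by 0.27 without CBA/J (adjusted p = 0.00222), and the cytosolic scaffold gene Nubp2 fell by 0.34 and by 0.23 without CBA/J (0.0452). Nubp1, its partner, and Hscb rose by 0.26 and 0.18, and neither passed without CBA/J. Bola3 differed between strains (interaction adjusted p = 0.0048), from -0.31 in C57BL6/J to 0.93 in CBA/J.

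The genes whose means over the 12 groups followed the hepcidin genes most closely are given as a description, since the group means share arrays and only 12 points enter. For Hamp they were Pld3 (r = 0.95), Prkcsh (0.94), Vps53 (0.93), Slc22a18 (0.92) and Hdac10 (0.92), and the same genes had r between 0.33 and 0.63 among mice within groups. For Hamp2 they were Ppp1r42 (0.95), 2810025M15Rik (0.91), Ndufaf5 (0.90), D630033O11Rik (0.90) and Yif1b (0.90), with r between -0.21 and 0.36 within groups. For Tfrc they were Trim32 (0.92), Mapkapk5 (0.89), 1600020E01Rik (0.88), Fcgr1 (0.86) and Lpl (0.86), with r between -0.08 and 0.07 within groups.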

How the data were processed

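Liver RNA of 96 mice, 1 mouse per Affymetrix array, was measured in 12 groups of 8. The deposited values are intensity signals on a linear scale for 45101 probe sets, made with MAS5, per the submitters' processing notes. Every array has the same trimmed mean of 500.0 (2% taken off each end), so the authors' values were globally scaled, as tested on the values. Global scaling leaves array medians free to differ, which can move high and low signals in opposite directions. No scan date or slide was used, as the sources used here give none, and the number of arrays limits the precision.

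Here the signals were taken as log2. Probe sets at or above their array's median in at least 8 arrays were kept (32999), 64 control probe sets left out. One model with 12 group means was fitted with limma 3.58.1 (R 4.3.3; trend, robust), and adjusted p-values are Benjamini-Hochberg over all kept probe sets, called under 0.05. Of the probe sets, 34958 have 1 gene symbol, 932 several and 9211 none in the platform annotation; 34754 matched RefSeq by gene ID. On simulated data, 168 of 200 probe sets changed by a log2 of 1 were recovered in 32999, with 14 false calls. The simulated noise was independent between arrays and probe sets, without strain differences, interactions or array-wide shifts. It therefore does not gauge false calls under the array shifts seen here. Relations used 100000 permutations within groups (Python 3.11.15, numpy 2.4.6), where 1e-05 is the smallest p. The members, gene lists and tests were chosen with earlier results of these data known. All probe sets of the 10 genes are named; from each pathway list up to 4 genes with the smallest p in the averaged effect and up to 2 in the interaction, and the 5 genes most like Hamp, Hamp2 and Tfrc. Equal replicate numbers in the labels did not pair the mice: over 48 same-numbered pairs of restricted and control arrays, r lay between -0.139 and 0.128. Alternatives covered the scaling, offset, filter, weights, arrays and strains entered.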

Additional observations from a re-analysis of the deposited data

Results flagged for a closer look

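Values far from their group were searched for in 120 groups of 8, with 1 probe set per gene, by the gap to the nearest other mouse over the group's range (above 0.526). By chance about 1 in 20 groups would pass, and 16 groups did. B6C3F1/J control replicate 2, an array with a median above 8, was far below the other 7 for Hamp (13.19), Hamp2 (12.42), Tfr2 (10.87), Slc11a2 (7.03), Slc40a1 (10.72), Fth1 (13.14) and Ftl1 (13.80). DBA/2J restricted replicate 6, the other such array, was far below for Trf (12.83), Fth1 (11.12), Ftl1 (11.48) and Bmp6 (5.24). Outside these arrays, C57BL6/J restricted replicate 2 was low for Tfr2 (11.27) and high for Ftl1 (15.20). Replicate 4 of restricted 129S1/SvImJ was high for Tfrc (10.03), replicate 4 of restricted C3H/HeJ for Slc11a2 (10.04) and replicate 8 of restricted B6C3F1/J for Slc11a2 (9.20).

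The diet effect differed between strains by the interaction test for 10 probe sets. The adjusted p was 0.0145 and 0.00124 for the Hamp probe sets 1419196_at and 1419197_x_at, 0.00375 and 0.00439 for the Hamp2 probe sets 1436643_x_at and 1456289_at, and 3.32e-05 for Trf. It was 0.00438 for Slc11a2 1426441_at, 0.0267 for Slc40a1 1417061_at, 0.0125 for Fth1 1427021_s_at, and 0.0185 and 0.00755 for the Ftl1 probe sets 1418364_a_at and 1422301_at. None of the 10 passed without CBA/J by limma, a fit for which no interaction share of all probe sets is given.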

How the results depend on the processing

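The averaged Hamp2 difference passed in all 12 alternatives run (1.04 to 1.30). The called counts among the 22 probe sets moved more. In each case below the cause was not tested unless fewer probe sets or samples entered. The share of all probe sets called is given only for the main fit and for the averaged effect without CBA/J. Counts under the other settings therefore have no background and are not read as traits of these genes. In the averaged effect, 3 rose, against 5 with array weights, 6 without the 2 arrays above 8, 7 with array median in the model (the covariate) and 1 without CBA/J. There 2 fell, against 1 under quantile normalisation, 1 with 1 probe set per gene, 1 with the covariate and 0 without CBA/J (3 at an unadjusted limma p under 0.05). In CBA/J 14 were called, against 5 under quantile normalisation, 8 with 75th percentile centring and 5 with 1 probe set per gene, and Fth1 1448771_a_at reversed to -0.32 under quantile normalisation. In C57BL6/J 2 were called, against 1 under quantile normalisation and under 75th percentile centring, 7 with array weights and 6 with only that strain's groups fitted. In B6C3F1/J 4 were called, against 2 under quantile normalisation and 1 with only its groups, in C3H/HeJ 1 against 2 with only its groups, and in DBA/2J 0 against 1 with the stricter filter and 1 with the covariate. The interaction had 10, against 4 under quantile normalisation, 6 with 1 probe set per gene and 0 without CBA/J (7 unadjusted). Control strain differences had 7, against 4 with 1 probe set per gene, 17 with array weights, 15 without the 2 arrays and 15 with the covariate. The 15 pairs had 49 calls, against 32, 101 and 92 with 1 probe set per gene, array weights and the 2 arrays left out. The cross against its parents had 2, against 1 with 75th percentile centring, 5 with array weights, 1 with only its groups and 4 without the 2 arrays.

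Relations with Hamp that changed were Trf (0.14), Ftl1 (0.18), Id1 (0.16), Smad6 (0.25) and Smad7 (0.27) under quantile normalisation, of which the first 3 lost the call and the last 2 gained it. Without the 2 arrays, an alternative chosen after seeing the data, Id1 lost it (0.21) and Slc40a1 gained it (-0.24). Without these arrays, the pathway list counts in the averaged effect went past 1.5 times in 2 cases: 1 signalling target rose, against 0, and 2 inflammatory genes fell, against 0. With the replicate number as a block the Hamp2 difference was 1.17 (adjusted p = 4.91e-18), and no count moved by over 1.5 times.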

Other observations

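Alas2, the haem synthesis enzyme of red cells, was among 4 measured erythroid transcripts and fell by 0.60 in restricted livers averaged over strains (adjusted p = 2.45e-08). Hba-a1, Slc4a1 and Car1 gave 0.29, 0.02 and 0.17 and did not pass. The mean of the 4 was 7.66 in restricted and 7.69 in control livers (permutation p = 0.802).

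The manufacturer's Tfrc control probe set for the 3′ end, left out of the tests, averaged 7.93 in restricted and 6.80 in control CBA/J livers and 6.95 in restricted and 7.48 in control C57BL6/J livers, without overlap in either strain.

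Dcn and Col3a1, matrix genes of stellate cells, gave -0.40 and 0.73 averaged over strains (adjusted p = 1.3e-05 and 5.62e-09), so stellate markers did not move one way.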
